A study of Mus musculus with 20 samples.

Results

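Egfl7 knockout was compared with wild type in neurospheres of the mouse subventricular zone (SVZ), the stem cell niche that lines the lateral ventricles of the adult brain. The comparison covers 6 of the 20 RNA sequencing libraries of the study, 3 labelled knockout and 3 labelled wild type. A gene was kept if it reached at least 1 RPKM (reads scaled by gene length and sequencing depth) in at least 3 of these 6 libraries. This left 13172 of the 36724 genes in the table (35.9%), of which 11919 are protein coding and 12253 reached 1 RPKM in all 6 libraries. The threshold kept 272 genes that passed in exactly 3 libraries and left out 332 that passed in exactly 2. The third-highest value was 1.0 RPKM in the kept gene nearest the threshold and 0.999 in the nearest gene left out.

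Egfl7 codes for an extracellular protein of the EGF-like family that is best known as a product of blood vessel lining cells and is also found in neural stem cells. It binds Notch receptors and can interfere with their activation by ligands on neighbouring cells. In the SVZ, Notch signalling through Rbpj and the Hes and Hey transcriptional repressors holds stem cells in an undifferentiated, slowly dividing state, while epidermal growth factor receptor signalling accompanies activation and division. Neurospheres are floating clusters that neural stem and progenitor cells form in culture when given the growth factors EGF and FGF.

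All 6 libraries came from untreated first-round spheres of adult male C57BL/6 mice aged 8 to 12 weeks, grown for 3 days in B27 medium with EGF and FGF at 20 ng/ml. Among the items given in the labels, the groups differ only in genotype, knockout or wild-type control. Each library has its own mouse number, and the numbers 4, 5 and 6 occur in both genotypes. The sources used here do not give which part of Egfl7 was deleted, in which cells, or whether cultures were pooled. Where separate cultures are not stated, a p-value measures only the spread between these libraries. Second-round hippocampal spheres of male C57BL/6 mice of the same age range, untreated in the same medium and grown for 5 days, served as a second pair of groups, with 4 knockout and 4 wild-type libraries.

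The values in this comparison rest on 11.97 to 13.88 M mapped reads per library (M, 1e6), worked out from the smallest steps between low values, and 19109 to 19586 genes had a value. Markers of neural stem and progenitor cells were well expressed, with 16 of 17 kept. Among them, the intermediate filament gene Nes lay between 453 and 563 RPKM and the fatty acid binding protein gene Fabp7 between 4814 and 8788. Of the endothelial markers, 3 of 19 were kept, namely Flt1, Mfsd2a and the targeted gene Egfl7 itself. The summed level of the list was 64.1 to 88.9 RPKM in the knockouts against 66.1 to 96.6 in the wild types, most of it from the lipid transporter gene Mfsd2a. The endothelial genes Cdh5, Cldn5, Ly6c1 and Sox17 were at 0 in all 6 libraries. Microglia and macrophage markers were kept in 3 of 19 cases, with summed levels of 19.8 to 23.8 RPKM against 22.4 to 23.2, and 11 of the 19 were at 0 throughout, among them Cx3cr1, Aif1, Ptprc and Trem2. The pericyte and fibroblast list had 4 of 17 kept and summed levels of 77.4 to 116.5 against 64.7 to 146.5 RPKM, mostly from Cspg4, Pdgfra, Acta2 and Tagln, the first pair of which also mark oligodendrocyte precursors; Kcnj8, Dcn and Dpt were at 0. None of the 5 blood genes was kept, with sums of at most 0.265 RPKM. In bulk spheres, fewer cells of a type and less RNA per cell cannot be told apart.

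The mature sequences of 2 microRNA genes, Mir3098 and Mir6992, are shown here, from RefSeq on GRCm38.p6. Their values rest on single reads, and those of Mir3098 equal whole reads scaled by the lengths of these arms. The reads were sequenced at 100 bases, so the values do not show that the mature arms were present. The seed, bases 2 to 8 from the 5′ end and the part that pairs with target transcripts, is in capitals, and the 4 arms have 4 different seeds.
mmu-miR-3098-5p: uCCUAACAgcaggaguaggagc
mmu-miR-3098-3p: uUCUGCUGccugccuuuagga
mmu-miR-6992-5p: uGCCUGUGaugguuuggcugagu
mmu-miR-6992-3p: uCUCACUGaugaucauuugcag

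The targeted gene was examined first, since it checks the labels. Egfl7 (NCBI gene 353156, plus strand, chr2:26581028-26592682, GRCm38) was at 0.094, 2.86 and 0 RPKM in the libraries labelled knockout 1, 2 and 3, from 1, 30 and 0 reads. The libraries labelled wild type 1, 2 and 3 had 1.73, 2.99 and 0 RPKM, from 17, 31 and 0 reads. The groups therefore overlap completely, with 1 library of each label at the level of the other genotype. In these libraries 3 reads would have given 0.265 to 0.307 RPKM, so the wild-type value of 0 lies far below its group. Knockouts averaged 0.986 ± 1.63 RPKM and wild types 1.57 ± 1.5 (SD, n = 3 each).

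**Figure D1:**
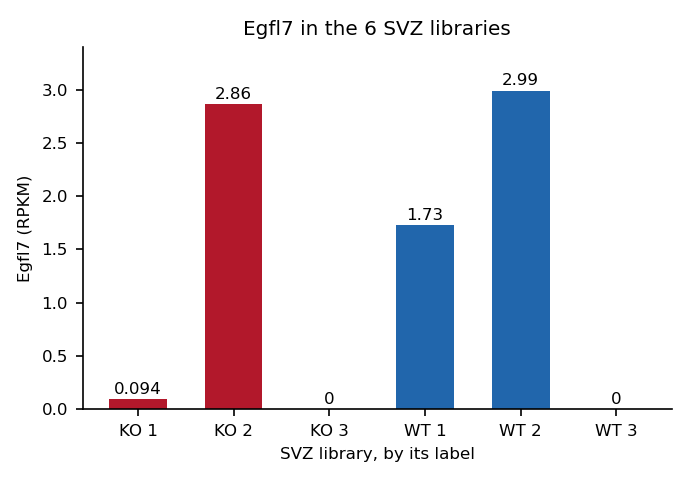
Egfl7 level in RPKM in each of the 6 SVZ libraries, knockout in red and wild type in blue by label. The library labelled knockout 2 stands at 2.86 RPKM, between wild type 1 and wild type 2, and the library labelled wild type 3 stands at 0.

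On the log2(RPKM + 1) scale, which is used for all differences below and understates changes of low genes, Egfl7 differed by -0.46 (knockout minus wild type). A two-sided exact permutation test over the 6 libraries gave p = 0.8, where the smallest possible p is 0.1, and the adjusted p of limma was 0.999. Without the library labelled knockout 2 the difference was -1.08, without the library labelled wild type 3 it was -1.03, and without both it was -1.66. Those libraries were set apart by their Egfl7 level, so the larger differences without them follow from that choice. In the hippocampus the gene was at 0 in all 7 knockout libraries and between 0.566 and 1.59 RPKM in all 7 wild-type libraries. Every result below follows the labels as given, and values without those 2 libraries stand beside the results they alter most.

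Across all kept genes the genotypes were close. The median difference was -0.01, 47.2% of the genes were higher in the knockouts, and 96.5% lay within 0.5 of no difference, with a median standard error of 0.14. By limma, with Benjamini-Hochberg adjustment over the 13172 genes and a threshold of 0.05, 2 genes were called higher in the knockouts (0.0152%) and 0 lower (0%). At an unadjusted p under 0.05 there were 473 genes (3.59%), 175 higher (1.33%) and 298 lower (2.26%). The groups did not overlap for 1028 genes (7.8%): the 3 knockouts lay wholly above the 3 wild types for 430 genes (3.26%) and wholly below for 598 (4.54%). Without both libraries whose Egfl7 level goes against the label, limma called 0 genes, and 547 (4.15%) had an unadjusted p under 0.05.

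**Figure D2:**
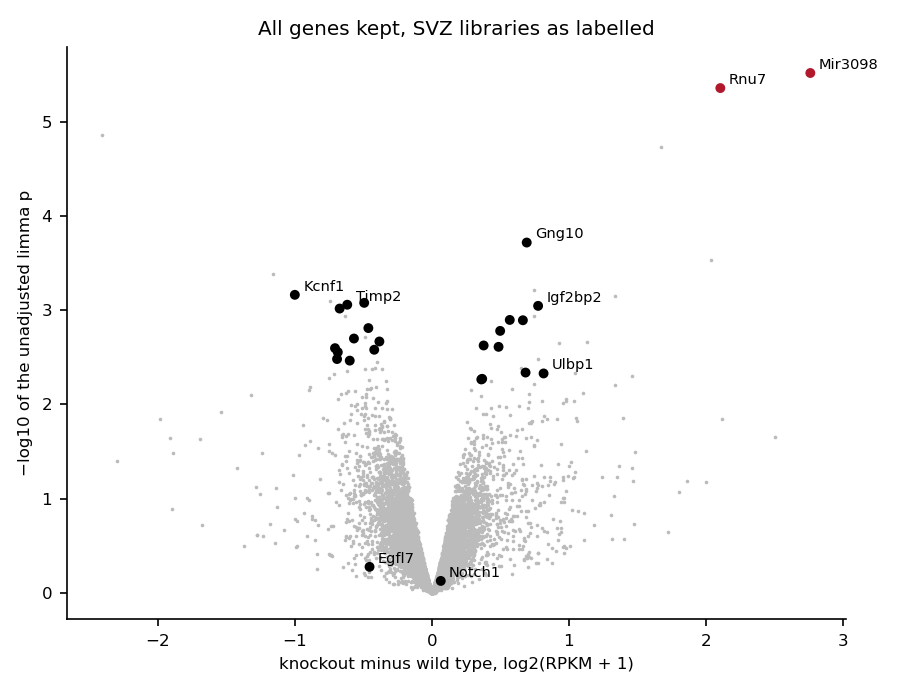
Each grey point is 1 of the 13172 kept genes, with the knockout minus wild-type difference in log2(RPKM + 1) on the horizontal axis and the negative log10 of the unadjusted p on the vertical axis. Red points are the 2 called genes, Rnu7 and Mir3098, and black points are Egfl7, Notch1 and the protein-coding genes of smallest p whose groups do not overlap.

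Both called genes make short non-coding RNAs. Both were kept only through the 3 knockouts, with every wild type below 1 RPKM, as 9 genes were in all, and 8 genes only through the 3 wild types. The filter itself thus fixed the direction of both, and their calls are no support for it. With no filter the limma adjusted p was 0.0634 for each, which is not a call. Rnu7 encodes the U7 small nuclear RNA, which guides the cleavage of histone messenger RNA ends, and lies on the minus strand at chr6:124741225-124741286. It was at 2.48, 3.77 and 3.81 RPKM in knockouts 1, 2 and 3 and at 0 in all 3 wild types, a difference of 2.11 (standard error 0.19, limma adjusted p = 0.0291). Those levels are 2, 3 and 3 reads, and 3 reads would have given 3.49 to 4.04 RPKM in the wild types. No fold is given, since the reads of every library lie at or under 3.

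Mir3098, the precursor of the first pair of sequences above, lies at chr6:125195792-125195878 on the plus strand. Its level was 6.997, 7.25 and 3.75 RPKM in the knockouts, whereas the wild types had 0, a difference of 2.76 (standard error 0.24, limma adjusted p = 0.0291). The 3 values equal 2, 2 and 1 reads within 0.5% when scaled by the lengths of the mature arms, 22 and 21 bases. In knockout 1 both reads fit the 5p arm, in the library labelled knockout 2 each arm has 1, and in knockout 3 the single read fits the 3p arm. Reads were sequenced at 100 bases, longer than either arm, so these fits do not show that mature arms were present. Neither Rnu7 nor Mir3098 overlaps another gene in RefSeq.

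Mir6992, named after its values were seen, was kept only through the 3 wild types, so that no test is given for it. It lies within the syntaxin gene Stx5a on chromosome 19. It was at 0 in the 3 knockouts and at 3.63, 6.82 and 3.13 RPKM in the wild types, from 1, 2 and 1 reads. The 3 small RNA genes thus rest on at most 3 reads in any library, whereas the protein-coding genes described next rest on levels measured in all 6 libraries. Without both libraries against their labels, the limma adjusted p was 0.204 for Rnu7 and 0.164 for Mir3098.

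No protein-coding gene passed the test. Of the 11919, 912 (7.65%) had groups that do not overlap and 384 (3.22%) had an unadjusted p under 0.05. The genes named next are the protein-coding ones among the 12 per direction that had the smallest p and separate groups, 11 higher and 12 lower in the knockouts. Since separate groups were part of their choice, their directions are a description. Their limma adjusted p ran from 0.507 to 0.999.

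Highest by p was Gng10, a gamma subunit of heterotrimeric G proteins (chr4:59035156-59041899, plus strand). Knockouts 1, 2 and 3 had 35.3, 31.6 and 33.4 RPKM, and the wild types had 21.4, 21.6 and 18.1. The lowest knockout thus stood well above the highest wild type. The difference was 0.69 (standard error 0.11, limma adjusted p = 0.507).

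Igf2bp2 encodes an RNA-binding protein of fetal tissues and neural progenitors that binds Igf2 and other messenger RNAs. Its level was 25.0, 27.7 and 19.7 RPKM in the knockouts against 11.8, 14.2 and 14.9 in the wild types, a difference of 0.78 (standard error 0.15). Clk3, a kinase of splicing factors, had 56.4, 60.9 and 62.6 RPKM against 38.0, 46.9 and 36.0. Uxt, a prefoldin-like chaperone gene on the X chromosome, had 19.6, 16.3 and 20.6 RPKM against 13.0, 10.1 and 11.4. The lowest knockout was knockout 3 for Igf2bp2, knockout 1 for Clk3 and the library labelled knockout 2 for Uxt, and in each gene it exceeded the highest wild type.

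Ulbp1, a ligand of the natural killer cell receptor NKG2D, showed the largest difference of the 11, at 0.82, but from low levels of 1.76, 2.71 and 2.58 RPKM against 0.582, 0.859 and 1.29. Epb4.1l1, a membrane-cytoskeleton linker of neurons, had 9.57, 8.11 and 6.39 RPKM against 3.84, 5.00 and 4.91. The other higher genes were more abundant and differed by 0.36 to 0.50. They were Pet100, an assembly factor of cytochrome c oxidase, Lysmd2, Mphosph6, a partner of the nuclear RNA exosome, Rfwd2, an E3 ubiquitin ligase gene, and Atp6v1g1. Reads of Uxt, Pet100, Atp6v1g1, Epb4.1l1, Ulbp1 and Rfwd2 could in part belong to overlapping genes, since the sources used here do not say whether strand was used in counting.

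Among the lower genes, Kcnf1, a modulatory subunit of voltage-gated potassium channels (chr12:17172100-17176888, minus strand), had the smallest p. It was at 1.27, 1.18 and 1.87 RPKM in the knockouts, whereas the wild types had 3.41, 3.51 and 4.70, so that the lowest wild type lay far above the highest knockout. Its difference was -1.001 (standard error 0.19, limma adjusted p = 0.845). Fhit, a hydrolase of diadenosine polyphosphates at a fragile site, had 1.55, 1.92 and 2.26 RPKM against 4.07, 3.36 and 3.80, a difference of -0.71.

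Timp2, an inhibitor of matrix metalloproteinases, had 44.8, 35.6 and 43.2 RPKM in the knockouts against 61.6, 70.5 and 58.8. Sparcl1, a matricellular protein of astrocytes, had 25.5, 24.4 and 35.6 RPKM against 47.9, 39.9 and 50.4. Olfm2, a secreted olfactomedin protein, had 188, 156 and 168 RPKM against 231, 235 and 238. Their differences were -0.62, -0.69 and -0.46, with standard errors of 0.12, 0.16 and 0.10. The angiopoietin-like gene Angptl6 had 6.09, 5.30 and 5.42 RPKM against 9.24, 8.07 and 9.08.

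Ifi27, an interferon-induced gene, had 18.7, 15.9 and 22.1 RPKM in the knockouts against 32.3, 28.3 and 31.0. Pard6a, a cell polarity protein, varied little within the groups, with 22.1, 21.8 and 21.5 RPKM against 27.9, 28.9 and 29.3, and a difference of -0.38 (standard error 0.09). Car3, a carbonic anhydrase gene, Pde6d, a chaperone of prenylated proteins, and Acp1, a small tyrosine phosphatase, differed by -0.69, -0.42 and -0.60. For Car3 the groups were nearly in contact, with knockout 3 at 40.5 RPKM and the library labelled wild type 3 at 43.9. Timp2, Sparcl1, Olfm2, Angptl6, Ifi27, Pard6a, Fhit, Pde6d, Car3 and Acp1 all overlap another annotated gene.

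A pair of these genes encodes subunits of 1 enzyme, the vacuolar proton pump that acidifies lysosomes and endosomes, with opposite signs. Atp6v1g1, of the cytosolic sector, was at 103, 108 and 102 RPKM in the knockouts against 76.3, 79.8 and 85.0 in the wild types, a difference of 0.38 (standard error 0.09). Atp6v0c, of the membrane sector, was at 104, 108 and 105 RPKM against 162, 153 and 136, a difference of -0.49 (standard error 0.09). In both genes the 3 knockouts lay within a narrow range. The limma adjusted p was 0.999 and 0.845.

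**Figure D3:**
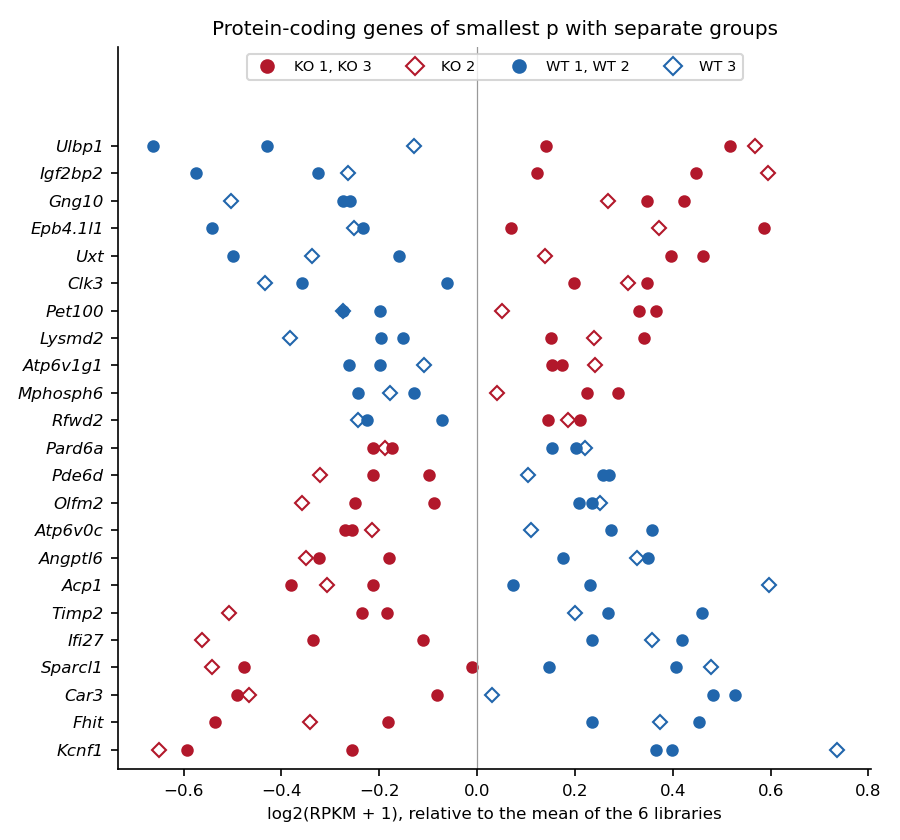
Levels of the 23 named protein-coding genes in the 6 libraries, as log2(RPKM + 1) minus the mean of the 6; knockouts are red and wild types blue, and open diamonds mark the libraries labelled knockout 2 and wild type 3. The rule that chose these genes required separate groups, so no diamond can fall among the points of the other label.

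Without both libraries against their labels, the 23 genes differed by 0.33 to 0.88 in size, and the differences of Gng10 and Kcnf1 were 0.65 and -0.81. The library labelled wild type 3 was at the far end from the knockouts for Kcnf1, Acp1, Gng10, Clk3 and Lysmd2, for example, and nearest to them for Ulbp1, Igf2bp2 and Car3.

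The Notch pathway was examined next because Egfl7 binds Notch receptors. Of 21 genes for receptors, ligands and their modifiers, 17 were kept, 5 higher and 12 lower, with 0 called and a median difference of -0.06 (-0.04 without both libraries against their labels) against -0.01 over all kept genes. Notch1 itself (chr2:26457902-26503822, minus strand) was at 61.9, 77.0 and 46.6 RPKM in the knockouts, whereas the wild types had 48.8, 60.1 and 66.2, with the groups intermixed. Its difference was 0.06 (exact permutation p = 0.9), and -0.01 without both libraries against their labels. Notch2 was at 7.21 to 9.01 RPKM in the knockouts against 7.56 to 9.89 in the wild types.

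Notch3, the third receptor kept, had 21.2, 16.4 and 23.8 RPKM against 27.1, 24.1 and 24.5, wholly lower in the knockouts, with a difference of -0.30 (standard error 0.14, limma adjusted p = 0.999). It shrank to -0.18 without both libraries against their labels, since the library labelled knockout 2 was the lowest. Rfng, a glycosyltransferase that tunes Notch to its ligands, differed by -0.24, with overlapping groups. Among ligands, Dll1 differed by -0.23, Dll3 by -0.40 and Jag1 by 0.34 (0.14 without both libraries), all with overlapping groups. Dner, an atypical ligand, was at 106, 102 and 102 RPKM against 96.7, 93.5 and 93.4, wholly higher by a small margin of 0.13.

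Of 10 Notch effector genes, 7 were kept, 1 higher and 6 lower, with 0 called and a median of -0.14, or -0.0042 without both libraries against their labels. Hes1, one of the Hes repressors, was at 16.6, 11.6 and 16.3 RPKM in the knockouts, whereas the wild types had 22.1, 21.3 and 18.2. All 3 knockouts lay below all 3 wild types, by a difference of -0.46 (standard error 0.16, limma adjusted p = 0.999), and the difference was -0.38 without both libraries. Hes5, its relative, did not share the order, with 16.1, 5.80 and 16.1 RPKM against 14.1, 15.4 and 6.81, where the low values are those of the 2 libraries against their labels. Nrarp, a feedback inhibitor of Notch, had 31.2, 9.48 and 35.6 RPKM against 35.1, 31.8 and 25.7. Its difference of -0.45 came to -0.0042 without both libraries.

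Egfl7 is also a vascular gene, and genes of the VEGF family were tabulated for that reason. Vegfd, listed under its older symbol Figf, did not reach the level needed to be kept. It was at 0.235, 0.316 and 0.240 RPKM in the knockouts against 0, 0 and 0.140 in the wild types, a difference of 0.27 (exact permutation p = 0.1, the smallest possible). Of the 6 kept VEGF ligands and receptors, 3 were higher and 3 lower with 0 called, and Vegfb (-0.25) and the co-receptor Nrp2 (-0.27) had the smallest p.

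Growth factor signalling, on which neurospheres depend, differed little. Of 28 genes of EGF and FGF signalling and its ERK feedback, 23 were kept, 9 higher and 14 lower, with 0 called and a median of -0.07, or -0.11 without both libraries against their labels. Egfr was at 111, 130 and 144 RPKM in the knockouts, whereas the wild types had 147, 140 and 132, overlapping. Dusp6, the phosphatase that switches ERK off and is itself induced by it, was at 107, 109 and 109 RPKM against 121, 129 and 144. The groups were separate, and the difference was -0.27 (standard error 0.09, limma adjusted p = 0.999). Lrig1, a negative regulator of EGF receptors, differed by -0.28 with overlapping groups.

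Cell cycle genes, abundant in these dividing cultures, were nearly level. All 25 S phase genes were kept, 12 higher and 13 lower (median -0.02), and all 27 mitosis genes, 11 higher and 16 lower (median -0.02), with 0 called in either list. The S phase differences ran from -0.19 for the ribonucleotide reductase gene Rrm2 to 0.27 for Ccne1. Ccne1, the cyclin of the entry into S phase, was at 44.7, 48.8 and 44.6 RPKM against 34.2, 35.7 and 44.9, so that only the library labelled wild type 3 reached the knockouts. Mitotic genes differed by -0.16 (Ube2c) to 0.19 (Cdca8). Mean levels over the mitosis list were 6.55 to 6.61 log2(RPKM + 1) in the knockouts and 6.56 to 6.66 in the wild types. Without both libraries against their labels, 18 of the 25 S phase genes were higher, with a median of 0.06.

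Among 18 regulators of G1 phase, 8 were higher and 10 lower with 0 called. The inhibitor gene Cdkn2c (-0.37, and -0.16 without both libraries against their labels) and the cyclin-dependent kinase gene Cdk6 (-0.39) had the smallest p. Cdk6 was wholly lower in the knockouts, at 3.53, 4.84 and 4.57 RPKM against 5.28, 7.84 and 4.92, by a narrow gap. Of the p53 target genes, 13 of the 19 kept were higher with 0 called and a median of 0.04, which was 0.18 without both libraries. Cdkn1a, the p53-induced inhibitor, was at 170, 179 and 128 RPKM against 97.8, 157 and 215, with the library labelled wild type 3 the highest of the 6.

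The list furthest from the median of all genes was that of quiescent stem cells and astrocytes, which share most of their markers. Of its 24 genes 22 were kept, and 18 of these were lower and 4 higher, with 0 called and a median of -0.29. Without both libraries against their labels the median was -0.13, with 5 higher, and without the library labelled knockout 2 alone it was -0.06. Apoe, the lipid carrier of astrocytes, had the largest difference, -1.08 (standard error 0.79), from 167, 26.4 and 198 RPKM in the knockouts against 325, 210 and 124 in the wild types. The library labelled knockout 2 was by far the lowest, and without both libraries the difference was -0.52. Slc1a3, the glial glutamate transporter, differed by -0.37, Glul, glutamine synthetase, by -0.39, and Cst3, a secreted protease inhibitor, by -0.38. Each had overlapping groups, with the library labelled knockout 2 lowest, and the standard errors were 0.23, 0.25 and 0.23. Without both libraries the differences were -0.31, -0.32 and -0.45.

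Gfap, the intermediate filament of astrocytes, was low in all spheres, at 6.42, 0.204 and 1.499 RPKM in the knockouts, whereas the wild types had 1.16, 0.768 and 2.23. Its difference was 0.28, and 1.14 without both libraries, when knockout 1 carries it. Mt2, a metallothionein, went against the list, with 102, 107 and 127 RPKM against 100, 91.1 and 75.1, wholly higher in the knockouts by 0.34 (standard error 0.13). Id2 and Id3, repressors induced by bone morphogenetic proteins, differed by -0.33 and -0.43. Both have overlapping groups, and the wider BMP list had 5 members higher and 8 lower, with 0 called.

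Stem and progenitor markers were 4 higher and 12 lower, with 0 called and a median of -0.11, or -0.03 without both libraries. Sox1, a stem cell transcription factor gene, was wholly lower, at 2.03, 2.38 and 2.61 RPKM against 2.84, 2.87 and 4.78, a difference of -0.40, or -0.22 without both libraries. Sox2 was at 74.9 to 87.1 RPKM in the knockouts against 83.3 to 98.4 in the wild types. Of the proneural and neuroblast genes, 14 of 29 were kept, 6 higher and 8 lower, with 0 called and a median of -0.02, or 0.02 without both libraries. Gad1, the GABA-synthesising enzyme of SVZ-derived interneurons, had 1.83, 1.33 and 2.52 RPKM against 3.54, 3.77 and 3.28, wholly lower, with a difference of -0.67 (standard error 0.19, limma adjusted p = 0.999).

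Oligodendrocyte precursor markers varied between libraries of the same label, with 6 higher and 9 lower of 15 kept, 0 called and a median of -0.09, or -0.05 without both libraries. Pdgfra, the growth factor receptor that defines these precursors, was at 51.7, 25.5 and 49.0 RPKM in the knockouts, whereas the wild types had 36.1, 16.9 and 13.4, a difference of 0.95 (standard error 0.42, limma adjusted p = 0.999). Wild type 1 exceeded the library labelled knockout 2. Gpr17, a receptor of the committed stage, ranged from 9.92 to 48.7 RPKM in the knockouts against 7.42 to 69.9 in the wild types. Nkx2-2, a transcription factor of the lineage, differed by -0.47 with overlapping groups. Myelin genes (2 higher and 7 lower of 9 kept) had a median of -0.05, and 0.08 without both libraries.

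Matrix and integrin genes had 16 members higher and 12 lower of 28 kept, 0 called, and a median of 0.06. Itga7, an integrin subunit that binds laminin, was at 29.5, 37.3 and 18.8 RPKM in the knockouts, whereas the wild types had 12.3, 9.66 and 22.0. Its difference of 0.94 (standard error 0.34) was 1.04 without both libraries. Itga6, another laminin-binding subunit, went the other way, at 56.1, 64.5 and 74.1 RPKM against 85.9, 88.9 and 76.5, wholly lower, with a difference of -0.37. Col18a1, the precursor of endostatin, had the largest difference of any listed gene, 1.48, but a standard error of 0.99, from 22.6, 61.0 and 5.43 RPKM against 2.90, 3.66 and 22.9. The library labelled wild type 3 lay there among the higher knockouts.

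In metabolism, all 28 cholesterol and fatty acid synthesis genes were kept, 6 higher and 22 lower with 0 called, with a median of -0.11, and of -0.04 and 10 higher without both libraries. Ebp and Sqle, enzymes of sterol synthesis, were wholly lower in the knockouts, with Sqle at 240, 212 and 239 RPKM against 277, 271 and 246. Glycolysis and hypoxia genes split into 11 higher and 13 lower, with 0 called and a median of -0.0063, or 0.10 without both libraries. Egln3, an oxygen-sensing hydroxylase induced by hypoxia, was at 9.30, 10.9 and 15.2 RPKM against 17.8, 16.9 and 17.9, wholly lower, with a difference of -0.56 (standard error 0.17). The muscle-type phosphofructokinase gene Pfkm was also wholly lower, with a difference of -0.38. Each had a limma adjusted p of 0.999.

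Interferon and antigen presentation genes were 4 higher and 16 lower of 20 kept, with 0 called and a median of -0.10, which was 0.03, with 12 higher, without both libraries. H2-K1, a class I antigen gene, was at 26.7, 23.3 and 28.4 RPKM against 31.6, 32.7 and 39.1, wholly lower, with a difference of -0.38, or -0.21 without both libraries. Wnt pathway genes were 5 higher and 17 lower of 22 kept, with 0 called and a median of -0.12, or -0.08 without both libraries. Wnt5a, a ligand, was at 25.2, 26.9 and 24.7 RPKM against 30.4, 29.4 and 37.8, wholly lower, with a difference of -0.32 (standard error 0.12). Nkd1, a feedback inhibitor of the pathway, differed by -0.53 with overlapping groups.

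The remaining lists each had 0 called. All but those of pericytes and fibroblasts and of microglia and macrophages were close to the median of all genes. Sonic hedgehog genes had a median of -0.07, immediate early genes -0.01, serine synthesis and Atf4 targets -0.02, heat shock genes 0.05 and ependymal genes 0.06. Regional genes of the ventral and dorsal forebrain had medians of -0.03 and -0.04. Without both libraries against their labels the sign turned for serine synthesis and Atf4 targets (0.05), heat shock genes (-0.02) and ventral forebrain genes (0.04). The 4 kept pericyte and fibroblast markers had a median of -0.17, and the 3 kept microglia and macrophage markers one of -0.12. For the latter the sign turned when libraries were left out. Prox1, a transcription factor gene of the hippocampal dentate gyrus, was wholly higher in the knockouts, at 10.1, 14.9 and 9.55 RPKM against 7.92, 8.32 and 9.43. Rarres2, which encodes the secreted chemoattractant chemerin, was at 8.31, 12.1 and 9.78 RPKM against 8.00, 7.67 and 8.07, and the phosphatase gene Dusp1 at 12.4, 13.8 and 11.8 against 14.8, 16.0 and 15.5. Their differences were 0.37, 0.30 (0.18 without both libraries) and -0.27, none of them called. Of the 29 lists with a kept member, 24 had a negative median and 5 a positive one, but 17 and 12 without both libraries against their labels. Each list is described by its counts only.

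**Figure D4:**
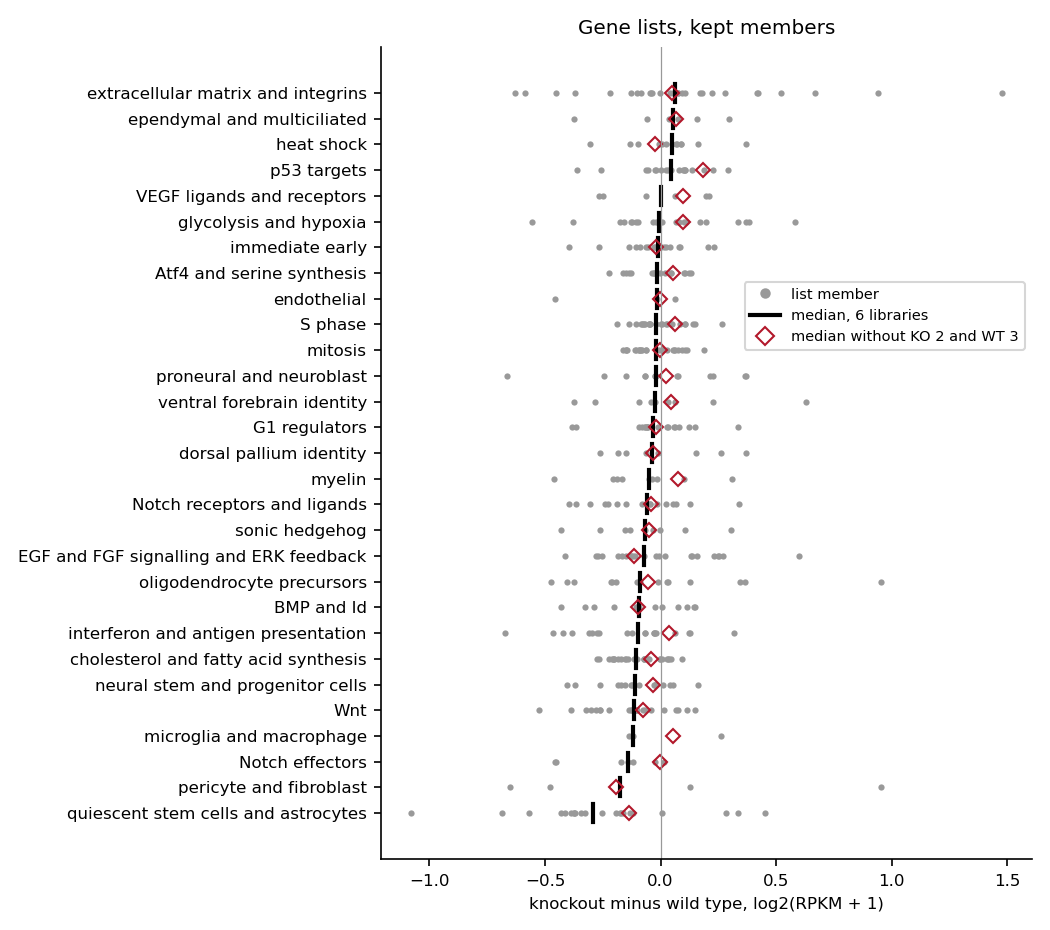
Knockout minus wild-type differences in log2(RPKM + 1) of the kept members of each gene list, with the median over the 6 libraries (black bar) and the median without the libraries labelled knockout 2 and wild type 3 (red diamond). The quiescent stem cell and astrocyte list lies lowest at -0.29, and its diamond lies at -0.13.

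The first principal component is by construction the direction of widest spread among the 6 libraries. It held 37.2% of the variance and did not order them by label. Scores on it were 31.6 for the library labelled knockout 2, 9.71 for the library labelled wild type 3, 3.09 for knockout 1, -10.1 for wild type 2, -12.8 for knockout 3 and -21.5 for wild type 1. By list, 20 of the 22 kept quiescent and astrocyte markers loaded negatively, as did 24 of 28 sterol and fatty acid genes, 12 of 15 oligodendrocyte precursor markers and 6 of 7 Notch effectors. S phase genes (21 of 25), p53 targets (16 of 19) and matrix genes (19 of 28) loaded positively. Several other lists were uneven too. Stem and progenitor markers had 4 positive and 12 negative, and myelin genes 2 and 7. Glycolysis and hypoxia genes had 17 and 7, mitosis genes 17 and 10, and interferon and antigen presentation genes 7 and 13. Wnt genes were even, with 11 positive and 11 negative. Notch receptors and ligands had 9 and 8, and EGF and FGF signalling 12 and 11. The share of all kept genes with either sign is not given here, so these counts are a description.

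The library labelled knockout 2 was the lowest of the 6 in mean level of the astrocyte list, at 5.53 log2(RPKM + 1) against 6.11 to 6.49 elsewhere. It was also the lowest for Notch effectors, at 5.39 against 5.88 to 6.17, and for oligodendrocyte precursor markers, at 5.43 against 5.51 to 6.28. For matrix genes it was the highest, at 4.52 against 4.07 to 4.47, with tenascin C (Tnc) at 761 RPKM against 142 to 374. The median spread of a gene within the knockouts was 0.158 (SD in log2), against 0.149 within the wild types. Over pairs of knockouts, where an SD has a lower median than over 3, it was 0.109 without that library, 0.129 without knockout 3 and 0.152 without knockout 1. When this library alone was left out, the list medians were 0.03 for Notch effectors, 0.02 for oligodendrocyte precursors and 0.0025 for matrix genes.

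**Figure D5:**
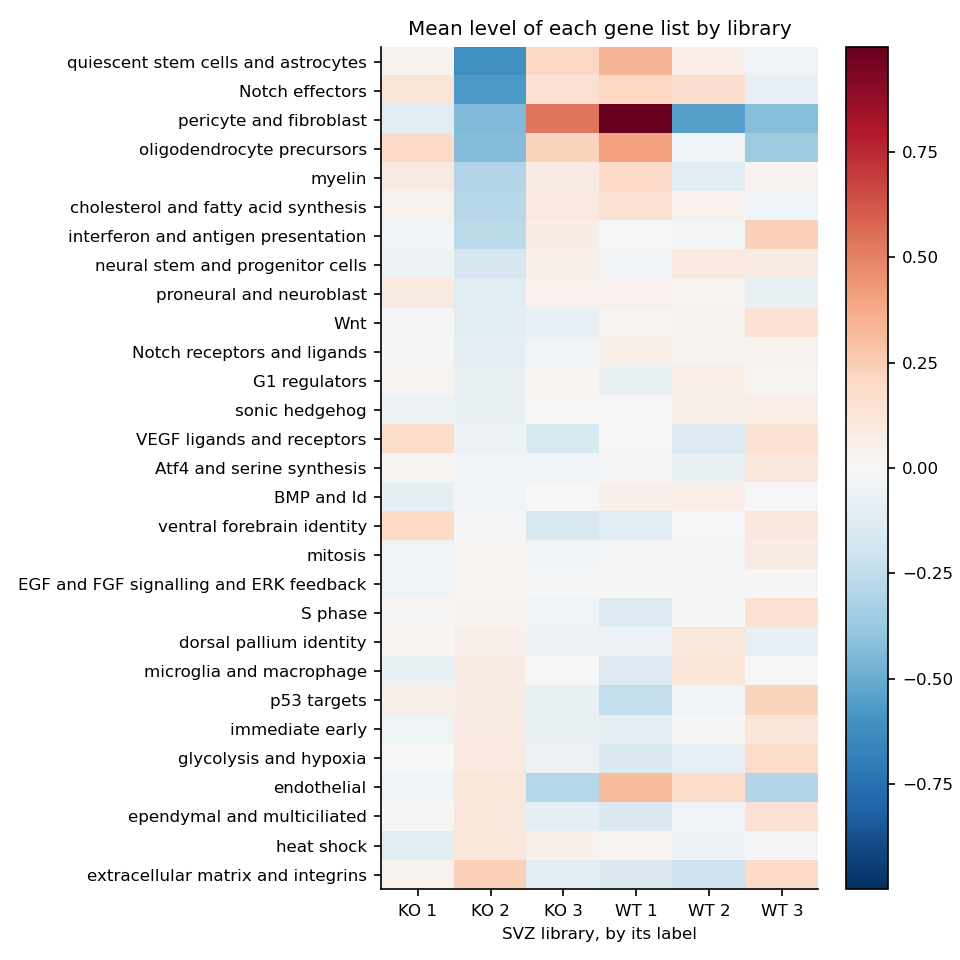
Mean log2(RPKM + 1) of the kept members of each gene list in each library, relative to the mean of the 6 libraries, with red above and blue below. The library labelled knockout 2 is the lowest for the astrocyte, Notch effector and oligodendrocyte precursor lists, and wild type 1 is the highest for each of these 3.

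Whether the SVZ difference differs from that in second-round hippocampal spheres was tested as the difference of the 2 knockout effects in 1 limma fit over all 20 libraries. Region, sphere round and culture day (3 against 5) differ together between them and cannot be told apart. By genotype, sex and number, 1 knockout and 2 wild-type mouse labels occur in both sphere types, so that libraries may share animals, and the fit treats them as independent. Among 13172 genes, 1 was called (0.00759%), Rnu7, with an SVZ effect 2.54 above the hippocampal one (standard error 0.29, limma adjusted p = 0.00125). With the mouse label as a random effect the limma adjusted p was 0.00123. Rnu7 was kept through the SVZ knockouts alone, so the filter fixed the SVZ part of this difference. In the hippocampal second round Rnu7 was at 2.07, 4.44, 3.63 and 1.59 RPKM in the knockouts against 5.08, 3.76, 3.87 and 3.75 in the wild types, and it was at 0 in all 6 first-round hippocampal libraries. Thus only the SVZ wild types and the first-round hippocampal libraries were without it. Mir3098 averaged 18.7 RPKM in second-round knockouts and 16.9 in wild types, and its difference of effects, 2.65, was not called.

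None of the 23 named protein-coding genes was called in that test, and 9 of them had an unadjusted p under 0.05, where 1.81% of all genes did, 0.607% with a higher and 1.21% with a lower SVZ effect; the choice of genes with large SVZ effects bears on that count. In the hippocampal second round 13 of the 23 had the sign of the SVZ and 10 the other sign. Gng10 averaged 66.2 RPKM in hippocampal knockouts and 67.0 in wild types, and Clk3 39.2 and 39.4. Ifi27 had the opposite sign there, with 73.8 and 44.3 RPKM, and Igf2bp2 was almost silent, with 0.271 and 0.115. Levels within a hippocampal genotype were uneven for some genes. Rrm2 averaged 49.4 RPKM in hippocampal knockouts and 31.5 in wild types, but differed by 1.36 in log2(RPKM + 1). Ube2c averaged 54.1 and 36.3 RPKM there and differed by 1.60. Libraries alike within each genotype would give smaller differences from these means. Where the spread is that wide, the lack of a call is no support for equal effects. The SVZ effect minus the hippocampal one was 0.72 for Gng10, 0.58 for Clk3, -1.24 for Ifi27 and -1.17 for Kcnf1, each with a limma adjusted p of 1.0.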

How the data were processed

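Trizol was used to isolate RNA from the spheres, per the labels' protocols; stranded libraries free of ribosomal RNA were captured on mouse exon baits and sequenced as pairs of 100 bases, to a planned 50 M reads (M, 1e6). The submitters' processing notes name FastQC 0.11.5, DESeq2 and the build mm10 (GRCm38); for the aligner, read counter, gene lengths and use of strand, nothing is given in the sources used here. Per the file headers, the table deposited by the authors holds linear RPKM per gene, with decimal commas. No model for counts was applied to RPKM, and blanks were read as 0.

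Values were tested as log2(RPKM + 1) with limma in R (lmFit, eBayes with trend and robust; 4 residual degrees of freedom) on the 6 SVZ libraries alone, two-sided, with Benjamini-Hochberg adjustment over the 13172 kept genes. The difference between SVZ and hippocampal effects used all 6 groups; mouse labels shared between groups entered as a random effect (limma duplicateCorrelation) in an alternative chosen after seeing the data. The script was tested on simulated data. Read depth was recovered from low values; 96.4% of 392 low values came out whole within 0.04 reads. The level of 3 reads covers counting error only.

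Named are Egfl7, Notch1 and Vegfd, called genes, up to 12 genes per direction of smallest p with separate groups, and the 2 kept members of smallest p per gene list; predicted, microRNA, snoRNA, rRNA and mitochondrial genes and pseudogenes were only counted unless called. The result of 1 list member is not reported here. Other list members were chosen as examples after their values were seen. The members of the comparison, the 30 gene lists and the tests were chosen with earlier results of these data known. Alternatives were other pseudocounts, filters, scalings, weights and moderation, a replicate block, and leaving libraries out. First-round hippocampal knockouts and wild types differ in donor sex and were used only for Egfl7 and Rnu7 levels.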

Additional observations from a re-analysis of the deposited data

Results flagged for a closer look

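Rnu7 was called for a difference in knockout effect between first-round SVZ and second-round hippocampal spheres, whose region, round and culture day cannot be told apart. The SVZ knockout minus wild-type difference exceeded that of second-round hippocampal spheres by 2.54 on the log2(RPKM + 1) scale (standard error 0.29, limma adjusted p = 0.00125); all 3 SVZ knockouts lay above all 3 SVZ wild types. The gene was kept through the SVZ knockouts alone, which fixes the SVZ direction, and rests on at most 3 reads in any SVZ library. The call is therefore no support for a difference between the sphere types.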

How the results depend on the processing

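The direction of the Egfl7 difference and its side of the threshold were the same under all alternatives, from -1.66 (without both libraries against their labels) to -0.03 (without wild type replicate 2), with a limma adjusted p of 0.523 or more. The value of -1.66 is no support for the direction, since both libraries were left out for their Egfl7 level. The count of genes higher in the knockouts, 2, became 0 with no filter, with the authors' filtered genes, among protein-coding genes alone (an alternative chosen after seeing the data), with the replicate block and without both libraries; leaving out 1 library at a time gave 0 to 3, with 0 without knockout 1, knockout 2, wild type 2 or wild type 3. The count of genes lower, 0, became 1 with pseudocounts of 0.1 or 0.5, a filter at 0.5 RPKM, or array weights, which also raised the genes at an unadjusted p under 0.05 from 473 to 1280. Rnu7 lost its call with no filter (limma adjusted p = 0.0634), the authors' genes (0.0652), the replicate block (0.204) and each library left out (0.0731 to 0.211); Mir3098 lost it in these cases except without knockout 3 (0.0118), and also with spread shared over all 6 groups (1.0). For the SVZ minus hippocampal effect, the count higher, 1, became 2 with median centring or without trend and robust and 0 among protein-coding genes, with 1 to 2 on leaving out 1 library; the count lower, 0, ran from 0 to 1.

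Replicate numbers pair the libraries only by name: same-numbered libraries correlated at 0.00759, -0.0685 and -0.293 in their deviations, and with the replicate block 0 genes were called and 413 had an unadjusted p under 0.05.

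Single differences that changed sign, none of them called, were Foxj1 (0.0003), Notch1 (-0.0104) and Bbc3 (0.0926, and 0.0709 with array weights) without both libraries. On leaving out 1 library, Notch1 ran from -0.11 to 0.25, Nrarp from -0.78 to 0.12, Ugt8a from -0.0177 to 0.60, Flt1 from -0.23 to 0.26 and Acta2 from -0.94 to 0.0172. For the medians of the 29 lists, recomputed under 10 alternatives each, 269 of 290 values moved by less than the spread and 21 by more.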
